A study of Mus musculus with 9 samples.

Results

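The genes described here encode the non-collagen part of the tumour matrix: adhesive glycoproteins, elastic fibre proteins, latent TGF-beta binding proteins, proteoglycans, basement membrane linkers and the lysyl oxidases that crosslink collagen and elastin. A list of 39 such genes was chosen by symbol, from the 19057 genes that had a named probe on the array. A probe was found for 35 of them, and 31 passed the detection filter described next and were tested, among 11537 genes tested in all. Expression was measured with 1-colour Illumina arrays in 9 spontaneous pancreas tumours of mice, with 3 tumours in each of 3 genotype groups, numbered 1 to 3 within a group. The groups were KPC, KPC;TwistcKO (here Twist cKO) and KPC;SnailcKO (here Snail cKO), so all 9 tumours carried the KPC background, the usual name for a strain that develops ductal pancreatic cancer. The KPC group was described as wild type for Twist and Snail, and the others as lacking Twist or Snail expression in the pancreas. The design text speaks of 2 mice a group and the labels of 3, and every tumour was kept in its labelled group. The promoter that drives the deletion, the age of the mice and the position of the probes in the targeted genes are not given in the sources used here. Values are log2 intensities after background correction and quantile normalization. A gene was tested where its probe had a detection p-value under 0.05, a comparison with the array's negative controls, on at least 3 of the 9 arrays. Probes differ in brightness for the same amount of RNA, so a level is compared only between tumours and never between genes.

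The matrix around tumour cells is laid down mainly by fibroblasts, and pancreatic cancer is known for an unusually dense one. Fibronectin, tenascin and the thrombospondins bind integrins and other receptors, and microfibrils and elastin give tissue its recoil. Latent TGF-beta binding proteins hold the growth factor in the matrix until it is released, and small leucine-rich proteoglycans attach to collagen and set the width of its fibrils. Twist1 and Snail (gene Snai1) are transcription factors that bind E-box motifs in DNA and drive the epithelial-to-mesenchymal transition, in which cells come to express several of these matrix genes. RNA came from whole tumour pieces, so a lower value can mean fewer cells of a type or less RNA per cell, which cannot be told apart here.

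Tumours that stand apart are given first. KPC tumour 1 had a summed linear intensity of duct and tumour epithelium markers of 5950, against 48200 and 52800 in the other KPC tumours, and the highest macrophage (63800) and fibroblast (25800) marker sums of the 9. Twist cKO tumour 2 had a sum of duct and tumour epithelium markers of 337, so the markers of the labelled tumour tissue were close to background in it. Its sum of the B cell markers Cd79b and Cd22 was 8370, against 49.9 to 83.5 in KPC. For the T cell markers Cd3d and Cd3e it was 7860 (44.8 to 83 in KPC), and for adipocyte markers 24200 (2110 to 2430 in KPC). Each of these sums was the highest of the 9 tumours. The other listed B cell, plasma cell and T cell markers were not tested. Snail cKO tumour 2 had the fewest detected probes (16707, or 36.9% of all, against up to 43.3% elsewhere) and the lowest fibroblast marker sum of the 9 tumours (3210). The arrays also formed 2 sets by raw signal, one with median intensities of 99.1 to 107.2 (all KPC tumours and tumour 3 of both cKO groups) and one with 115.4 to 125.4 (tumours 1 and 2 of both cKO groups). Twist1 was at 9.19, 7.46 and 7.25 in the KPC tumours, 4.60, 4.67 and 5.23 in the Twist cKO tumours and 8.66, 4.65 and 7.56 in the Snail cKO tumours. The Twist1 probe was above background on 3 KPC, 1 Twist cKO and 2 Snail cKO arrays. Snai1 was detected in every tumour, at 7.91, 7.46 and 6.89 in KPC and at 7.79, 6.08 and 7.30 in Snail cKO. In the Twist cKO tumours Snai1 was at 7.32, 5.65 and 7.72, and its lowest tumour was in that group.

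None of the 31 matrix genes passed the adjusted threshold of 0.05 between any groups. In Twist cKO against KPC tumours, 22 of the 31 had a lower mean, with a median log2 difference of -0.50, beside 6489 of all 11537 genes and a median of -0.065. In Snail cKO against KPC, 23 had a lower mean (median -0.35), beside 6218 of all genes (median -0.034). Between the cKO groups, 18 of 31 were lower in Snail cKO (median -0.088), beside 5518 of all genes (median 0.023). Loxl3, and Ltbp2 between the cKO groups, count here by measured means although their probes were above background on no Snail cKO array. Any pair of these comparisons has a group of tumours in common, so the counts are not independent.

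Both counts against KPC changed when single tumours were left out and when the array set was taken into account. Without Twist cKO tumour 2, 14 of the 31 genes had a lower mean in Twist cKO than in KPC (median 0.062). Of all genes, 54.9% did. Without Snail cKO tumour 2, 13 had a lower mean in Snail cKO than in KPC (median 0.23), beside 53.3% of all genes. The count against KPC was 13 for Twist cKO and 11 for Snail cKO with the array set as a block. Over all genes, the shares with the block were 55.2% and 53.6%. Within the array set that holds the KPC tumours, where each cKO group keeps 1 tumour, Twist cKO was lower than KPC for 10 genes and Snail cKO for 16. The shares of all genes there were 53.9% and 56.7%.

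The numbers of single genes past each threshold were set against the whole array. At the adjusted threshold, limma's moderated test called 0 of 31 matrix genes and 0% of all genes in each of the 3 comparisons and in the F test over the groups. The smallest adjusted p among the matrix genes was 0.979 for Twist cKO against KPC, 1.00 for Snail cKO against KPC, 0.985 between the cKO groups and 0.997 in the F test of limma. At an unadjusted p under 0.05, Fmod alone was called in Twist cKO against KPC, where 3.55% of all genes were called. Ltbp2 alone was called in Snail cKO against KPC (2.7% of all genes), and Fmod alone between the cKO groups (3.8% of all genes). The F test at that threshold called Fmod and Ltbp2, where it called 2.94% of all genes. Ltbp2 met the detection filter through the KPC arrays, where it was highest, so its calls are not independent of the filter.

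Groups whose tumours did not overlap were counted next. In Twist cKO against KPC, 1 matrix gene (Fmod) lay above all KPC tumours in every Twist cKO tumour, as did 3.01% of all genes, and 0 lay below, against 5.07% of all genes. In Snail cKO against KPC, 4 (Thbs1, Thbs2, Fbln2 and Ltbp2) lay below in every tumour, against 5.81% of all genes, and 0 lay above, against 2.85%. Ltbp2 was above background on 3 KPC and 0 Snail cKO arrays. The KPC arrays alone met the detection filter for it, so its place in this count is not independent of the filter. Between the cKO groups, Emilin1 and Fmod lay lower in every Snail cKO tumour, against 3.95% of all genes, and 0 lay higher, against 4.25%.

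**Figure D1:**
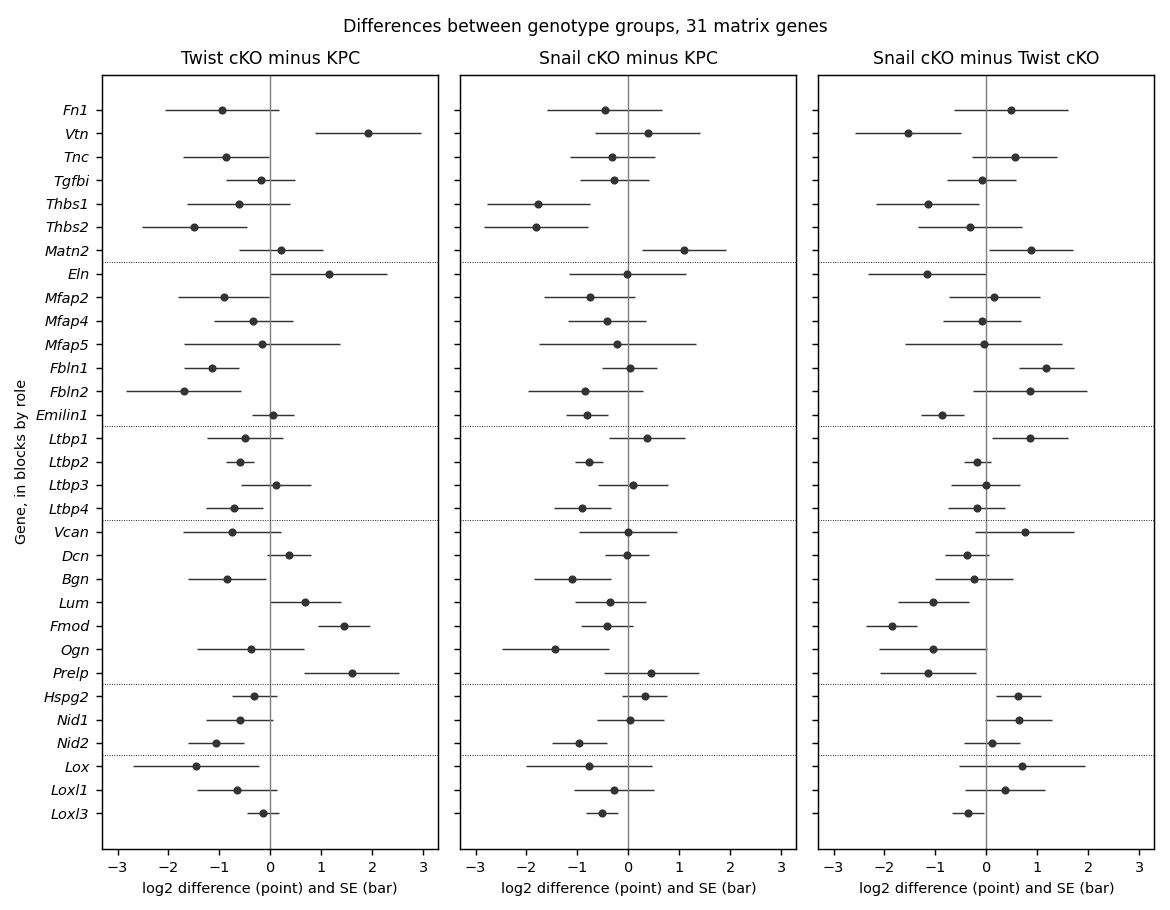
Log2 difference (point) and standard error (bar) of the 31 tested matrix genes in the 3 comparisons of groups of 3 tumours, in blocks by role. Points left of 0 are genes of lower mean, 22 of 31 in Twist cKO against KPC and 23 of 31 in Snail cKO against KPC, and Fmod, at 1.44 and -1.86, is the point on the right of the first panel and the left of the last that is farthest from 0 in units of its error.

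The spread between tumours was wider than for most genes. The median SD over the 9 tumours was 1.03 for the matrix genes and 0.487 for all genes tested, and the median range from lowest to highest tumour was 2.97 against 1.51. The share of the variance that lay between genotype groups was about the same, with a median of 19.4% for the matrix genes and 19.3% for all genes. Twist cKO tumour 2 was the lowest tumour for 14 matrix genes and Snail cKO tumour 2 for 11, so 1 of these 2 tumours was lowest for 25 of 31 (80.6%), against 35.6% of all genes. Both were the lowest 2 tumours for 13 of 31 (41.9%), against 6.76% of all genes. Those 13 were Fn1, Tnc, Thbs1, Thbs2, Fbln2, Mfap2, Ltbp4, Vcan, Bgn, Nid1, Nid2, Lox and Loxl1. Thbs1 and Vcan were above background on only 2 of 3 arrays of each cKO group.

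The high side was shared among more tumours. The highest value fell in KPC tumour 2 for 8 genes, in Snail cKO tumour 1 for 8, in KPC tumour 1 for 7, in Twist cKO tumour 3 for 4 and in Twist cKO tumour 2 for 2 (Vtn and Dcn). KPC tumour 1 had 9 genes more than 1 log2 unit above their own mean over the tumours, among them Fn1, Vcan and Tgfbi, and 5 more than 1 unit below it, Eln, Mfap5, Lum, Fmod and Prelp, where 7.05% of all genes were that far above and 8.98% that far below. In Twist cKO tumour 2, 17 of 31 (54.8%) were more than 1 unit below and 3 above (9.68%, against 9.92% of all genes), namely Ogn, Prelp and Vtn. In Snail cKO tumour 2, 19 (61.3%) were more than 1 unit below and 0 above. Of all genes tested, 13.7% were that far below in Twist cKO tumour 2 and 7.51% in Snail cKO tumour 2.

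**Figure D2:**
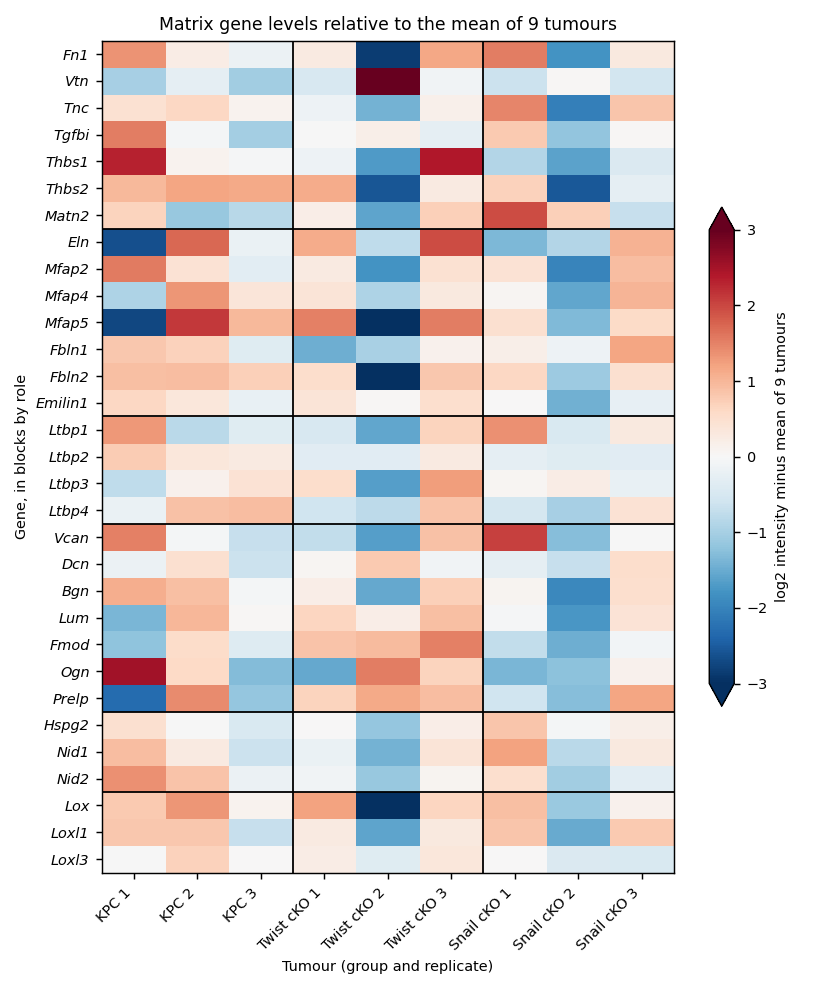
Deviation of each of the 31 tested matrix genes from its own mean over the 9 tumours (log2, colour), with genes in rows by role and tumours in columns by group. Twist cKO tumour 2 and Snail cKO tumour 2 are the columns with most low values (17 and 19 genes below -1). In KPC tumour 1, 5 genes are below -1, among them the elastic fibre gene Mfap5 and the proteoglycan Prelp.

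Fibroblast markers were set beside these values. All 10 fibroblast markers listed were tested, and their median deviation from the 9-tumour mean was 1.30, 0.47 and -0.36 in the KPC tumours, 0.26, -0.78 and 0.13 in the Twist cKO tumours and 0.26, -1.53 and 0.37 in the Snail cKO tumours. The median over the 31 matrix genes was 0.75, 0.59 and -0.21 in KPC, 0.20, -1.15 and 0.64 in Twist cKO and 0.18, -1.17 and 0.28 in Snail cKO. Both medians were lowest in tumour 2 of each cKO group. For the 7 interstitial proteoglycans alone, the median was 0.79 in Twist cKO tumour 2 and -1.28 in Snail cKO tumour 2. Single fibroblast markers were split in Twist cKO tumour 2. Col1a1 was at 6.16 there (11.16 to 12.20 in KPC) and Col3a1 at 6.19 (9.32 to 10.05 in KPC). Dpt was at 9.37 (5.52 to 10.10 in KPC) and Fap at 7.40 (6.92 to 7.76 in KPC). The fibroblast marker sum ranged from 8220 to 25800 in KPC, from 7400 to 14600 in Twist cKO and from 3210 to 21400 in Snail cKO, and its part in the matrix values was not tested. Means of the fibroblast markers were lower than in KPC for 10 of 10 in Twist cKO (median -0.47) and 7 of 10 in Snail cKO (median -0.66), and none passed the adjusted threshold in limma.

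**Figure D3:**
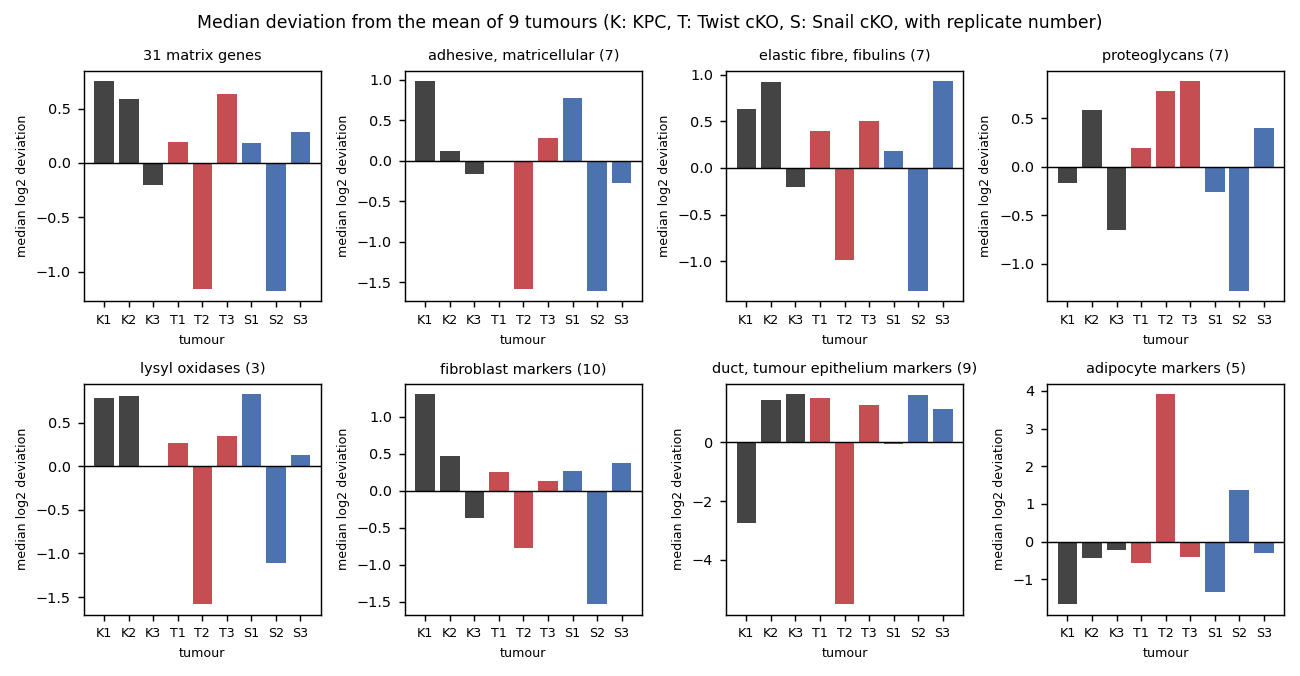
Median log2 deviation from the 9-tumour mean, per tumour, for the matrix genes and the marker lists. The matrix genes are at -1.15 in Twist cKO tumour 2 and -1.17 in Snail cKO tumour 2, and the fibroblast markers are at -0.78 and -1.53 there. The 7 proteoglycans are at 0.79 in Twist cKO tumour 2 and -1.28 in Snail cKO tumour 2.

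Promoters are shown for the 2 genes of smallest p in each comparison, Fmod, Ltbp2, Fbln1 and Emilin1, because Twist and Snail act through E-boxes. The general E-box is CANNTG, the form that Snail is known to bind is CAGGTG, and both strands were searched. Each window runs from 250 bases before to 50 bases after a RefSeq transcription start on GRCm38.p6, written 5′ to 3′ along the gene, with E-boxes in capitals. The Fmod window, chr1:134037004-134037303 on the plus strand, has 1 E-box, CATCTG. The Ltbp2 window, chr12:84876442-84876741 on the minus strand, has CAGGTG and CATCTG. The Emilin1 window, chr5:30913536-30913835 on the plus strand, has CAGCTG. The Fbln1 window, chr15:85205699-85205998 on the plus strand, is 1 of 2 for this gene and has CACGTG and CAGCTG.
Fmod: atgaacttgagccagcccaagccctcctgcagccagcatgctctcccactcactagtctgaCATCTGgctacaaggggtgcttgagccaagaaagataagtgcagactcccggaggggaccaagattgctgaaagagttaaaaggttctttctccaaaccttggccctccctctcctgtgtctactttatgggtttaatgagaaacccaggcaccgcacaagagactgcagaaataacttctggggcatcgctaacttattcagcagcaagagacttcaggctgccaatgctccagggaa
Ltbp2: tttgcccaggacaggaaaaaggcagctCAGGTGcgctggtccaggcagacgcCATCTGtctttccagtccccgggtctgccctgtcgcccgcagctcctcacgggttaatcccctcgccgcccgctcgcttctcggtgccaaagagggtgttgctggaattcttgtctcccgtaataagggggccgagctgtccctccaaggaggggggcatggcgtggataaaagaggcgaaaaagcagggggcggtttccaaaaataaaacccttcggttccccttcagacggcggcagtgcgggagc
Emilin1: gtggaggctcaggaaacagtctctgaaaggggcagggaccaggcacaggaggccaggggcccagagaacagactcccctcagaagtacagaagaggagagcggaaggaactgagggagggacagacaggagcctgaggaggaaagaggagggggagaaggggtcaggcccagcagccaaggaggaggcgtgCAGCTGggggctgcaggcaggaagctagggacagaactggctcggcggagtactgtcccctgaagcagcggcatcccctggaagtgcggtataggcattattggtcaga
Fbln1: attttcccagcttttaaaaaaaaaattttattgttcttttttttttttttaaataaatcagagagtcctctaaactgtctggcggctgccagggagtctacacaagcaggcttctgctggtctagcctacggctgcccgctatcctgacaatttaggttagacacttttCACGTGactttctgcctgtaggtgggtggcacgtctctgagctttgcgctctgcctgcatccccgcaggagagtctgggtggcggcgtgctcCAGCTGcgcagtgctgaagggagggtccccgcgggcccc
A window was held for 26 of the 39 genes, 37 windows in all. An E-box CANNTG was present in 26 of the 37 (70.3%), against 72.3% of all 32851 promoter windows. The form CAGGTG was in 5 of the 37 (13.5%), against 20.2% of all windows, and CATATG, a form that Twist can bind, in 1 (2.7%), against 3.91%. Both of these are forms of CANNTG and are counted within it as well. These are matches of letters and not sites shown to be bound.

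The adhesive and matricellular glycoproteins had lower means than KPC for 5 of 7 tested genes in Twist cKO (median -0.62) and for 5 of 7 in Snail cKO (median -0.31, but 0.023 with the authors' processed values). Without Twist cKO tumour 2 the first count was 3 of 7, and without Snail cKO tumour 2 the second was 2 of 7. Fn1, fibronectin, the adhesive protein that integrins assemble into fibrils, was at 13.40, 12.27 and 11.88 in the KPC tumours, 12.31, 9.20 and 13.20 in the Twist cKO tumours and 13.58, 10.24 and 12.34 in the Snail cKO tumours. It was lowest in tumour 2 of each cKO group, and the groups overlapped. Tnc, tenascin-C, a matricellular protein of remodelling tissue, was at 12.02, 12.17 and 11.66 in the KPC tumours, 11.39, 10.14 and 11.70 in the Twist cKO tumours and 13.01, 9.51 and 12.38 in the Snail cKO tumours. Its lowest and highest tumours were both in the Snail cKO group. Tgfbi, an adhesion protein induced by TGF-beta, was at 13.25, 11.65 and 10.69 in the KPC tumours, 11.69, 11.89 and 11.43 in the Twist cKO tumours and 12.48, 10.53 and 11.74 in the Snail cKO tumours. All 3 groups of Tgfbi overlapped, with KPC tumour 1 highest.

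The thrombospondins are matricellular proteins that restrain vessel growth, and thrombospondin-1 can also activate latent TGF-beta. Thbs1 was at 8.42, 6.23 and 6.09 in the KPC tumours, 5.96, 4.42 and 8.51 in the Twist cKO tumours and 5.25, 4.51 and 5.68 in the Snail cKO tumours. Every Snail cKO tumour was below every KPC tumour, with a log2 difference of -1.77 (SE 1.01), an adjusted p of 1.00 in limma and p = 0.1 in the exact permutation test, the smallest that 3 against 3 allows. Its probe was above background on 2 of 3 Snail cKO arrays, and the difference was -1.01 without KPC tumour 1 and -0.40 when the array set was blocked. Thbs2 was at 12.25, 12.46 and 12.40 in the KPC tumours, 12.39, 8.70 and 11.55 in the Twist cKO tumours and 11.96, 8.72 and 11.00 in the Snail cKO tumours. The KPC tumours lay close together, and tumour 2 of each cKO group lay far below the rest. Thbs2 differed from KPC by -1.49 (SE 1.03) in Twist cKO, with an adjusted p of 0.979 in limma and an exact permutation p of 0.2. In Snail cKO the difference was -1.81 (SE 1.03), with an adjusted p of 1.00 in limma and an exact permutation p of 0.1. It was -0.40 without Twist cKO tumour 2 in the first comparison and -0.89 without Snail cKO tumour 2 in the second.

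Vtn, vitronectin, an adhesion protein of plasma made chiefly by the liver, was at 4.57, 5.30 and 4.52 in the KPC tumours, 5.09, 9.61 and 5.45 in the Twist cKO tumours and 4.92, 5.61 and 5.00 in the Snail cKO tumours. Far above the others stood Twist cKO tumour 2, and the other 8 tumours lay between 4.52 and 5.61. The difference from KPC was 1.92 (SE 1.04) in Twist cKO, with an adjusted p of 0.979 in limma and an exact permutation p of 0.2, and 0.48 without that tumour. Snail cKO was lower than Twist cKO by a difference of -1.54 (SE 1.04), with an adjusted p of 0.985 in limma and an exact permutation p of 0.4, and that difference was -0.098 without Twist cKO tumour 2. Of 8 hepatocyte markers listed, 5 were tested, without Alb, Fgb and Fgg. Their sum in Twist cKO tumour 2 was 148, the lowest of the 9 tumours. The source of the Vtn signal was not tested. Matn2, matrilin-2, an adaptor between matrix filaments, was at 6.67, 4.86 and 5.17 in the KPC tumours, 6.19, 4.42 and 6.72 in the Twist cKO tumours and 7.95, 6.70 and 5.31 in the Snail cKO tumours. Its highest tumour was Snail cKO tumour 1, and the groups overlapped. Postn, periostin, a fibroblast product abundant in many tumours, had 3 probes and was above background on 1 array, that of KPC tumour 2. Spp1, osteopontin, was not analysed here.

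Elastic fibre and fibulin genes had lower means than KPC for 5 of 7 in Twist cKO (median -0.33) and for 6 of 7 in Snail cKO (median -0.42). Those counts were 3 without Twist cKO tumour 2 and 2 without Snail cKO tumour 2. Eln, elastin, the rubber-like core of elastic fibres, was at 5.61, 9.96 and 8.04 in the KPC tumours, 9.35, 7.48 and 10.21 in the Twist cKO tumours and 6.90, 7.36 and 9.29 in the Snail cKO tumours. KPC tumour 1 was lowest, and KPC spanned most of the range of the 9 tumours. Mfap5, a glycoprotein of microfibrils, was at 6.90, 11.77 and 10.62 in the KPC tumours, 11.15, 6.48 and 11.18 in the Twist cKO tumours and 10.13, 8.32 and 10.20 in the Snail cKO tumours. KPC tumour 1 and Twist cKO tumour 2 were the low tumours, far under the others of their groups. Mfap2, also a microfibril protein, was at 10.49, 9.38 and 8.63 in the KPC tumours, 9.21, 7.15 and 9.41 in the Twist cKO tumours and 9.38, 6.97 and 9.87 in the Snail cKO tumours. Mfap4, a microfibril-associated protein that binds elastin, was at 5.56, 7.83 and 6.85 in the KPC tumours, 6.89, 5.56 and 6.80 in the Twist cKO tumours and 6.55, 4.93 and 7.51 in the Snail cKO tumours. Both were lowest in Snail cKO tumour 2, and their groups overlapped.

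Fbln1, fibulin-1, which joins fibronectin and elastic fibres, was at 11.36, 11.23 and 10.17 in the KPC tumours, 9.07, 9.57 and 10.67 in the Twist cKO tumours and 10.73, 10.39 and 11.73 in the Snail cKO tumours. Twist cKO tumours 1 and 2 were the lowest, and tumour 3 lay among the KPC tumours. Fbln1 in Twist cKO differed from KPC by -1.15 (SE 0.54), with an adjusted p of 0.979 in limma and an exact permutation p of 0.2. All 5 of its kept probes had a lower mean in Twist cKO, and the difference was -0.31 when the array set entered the fit as a block. Snail cKO exceeded Twist cKO by 1.18 (SE 0.54), with an adjusted p of 0.985 in limma and an exact permutation p of 0.2. Fbln2, fibulin-2, a partner of fibronectin and basement membrane proteins, was at 12.91, 12.93 and 12.73 in the KPC tumours, 12.53, 8.11 and 12.82 in the Twist cKO tumours and 12.63, 10.92 and 12.49 in the Snail cKO tumours. It was nearly level in 7 tumours and low in tumour 2 of each cKO group, and every Snail cKO tumour was below every KPC tumour. Its difference from KPC in Twist cKO was -1.70 (SE 1.13), with an adjusted p of 0.979 in limma and an exact permutation p of 0.2, and -0.18 without Twist cKO tumour 2.

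Emilin1, a glycoprotein at the elastin and microfibril boundary that restrains TGF-beta maturation, was at 8.60, 8.31 and 7.74 in the KPC tumours, 8.34, 8.00 and 8.47 in the Twist cKO tumours and 7.98, 6.52 and 7.73 in the Snail cKO tumours. Twist cKO and KPC overlapped, and every Snail cKO tumour was below every Twist cKO tumour. The difference of Snail cKO from Twist cKO was -0.86 (SE 0.42), with an adjusted p of 0.985 in limma and an exact permutation p of 0.1. From KPC it was -0.81 (SE 0.42), with an adjusted p of 1.00 in limma and an exact permutation p of 0.2. Without Snail cKO tumour 2 these were -0.42 and -0.36. Fbln5, fibulin-5, and Efemp1, fibulin-3, both had 1 probe that was above background on 0 of 9 arrays. Fbn1, the main fibrillin of microfibrils, and Efemp2, fibulin-4, were not analysed here.

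Among the latent TGF-beta binding proteins, 3 of 4 had lower means than KPC in Twist cKO (median -0.55) and 2 of 4 in Snail cKO (median -0.34, but 0.094 over the 3 genes left by a stricter detection filter). Without Twist cKO tumour 2, 2 of 4 were lower in Twist cKO (median -0.18). Ltbp2, a microfibril protein that does not itself bind the latent growth factor, was at 5.58, 5.17 and 5.09 in the KPC tumours, 4.48, 4.49 and 5.09 in the Twist cKO tumours and 4.56, 4.47 and 4.49 in the Snail cKO tumours. Its probe was dim, above background on 3 KPC arrays, 1 Twist cKO array and 0 Snail cKO arrays, so the KPC arrays alone met the detection filter. Snail cKO was at least 1.14-fold lower than KPC (measured means of 4.51 and 5.28), the dim group being set to the lowest signal detected on its arrays, with an adjusted p of 1.00 in limma and an exact permutation p of 0.1. In Twist cKO the difference from KPC was -0.59 (SE 0.27), with an adjusted p of 0.979 in limma and an exact permutation p of 0.2.

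Ltbp4, a binding protein of latent TGF-beta that also guides elastic fibre assembly, was at 9.11, 10.19 and 10.23 in the KPC tumours, 8.70, 8.53 and 10.17 in the Twist cKO tumours and 8.78, 8.31 and 9.74 in the Snail cKO tumours. Tumours 1 and 2 of both cKO groups were below every KPC tumour, and tumour 3 of both was among the KPC tumours. That split follows the array sets, and with the set as a block the difference of Snail cKO from KPC, -0.90 (SE 0.56) with an adjusted p of 1.00 in limma and an exact permutation p of 0.2, was 0.013. Ltbp4's dimmest kept probe had a difference of 0.45 in that comparison. Ltbp1, the best studied carrier of latent TGF-beta, was at 10.33, 8.21 and 8.67 in the KPC tumours, 8.55, 7.47 and 9.68 in the Twist cKO tumours and 10.40, 8.57 and 9.32 in the Snail cKO tumours. Ltbp3, another carrier, was at 10.11, 11.02 and 11.31 in the KPC tumours, 11.41, 9.22 and 12.13 in the Twist cKO tumours and 10.95, 11.11 and 10.67 in the Snail cKO tumours. Both were lowest in Twist cKO tumour 2, and the groups overlapped.

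**Figure D4:**
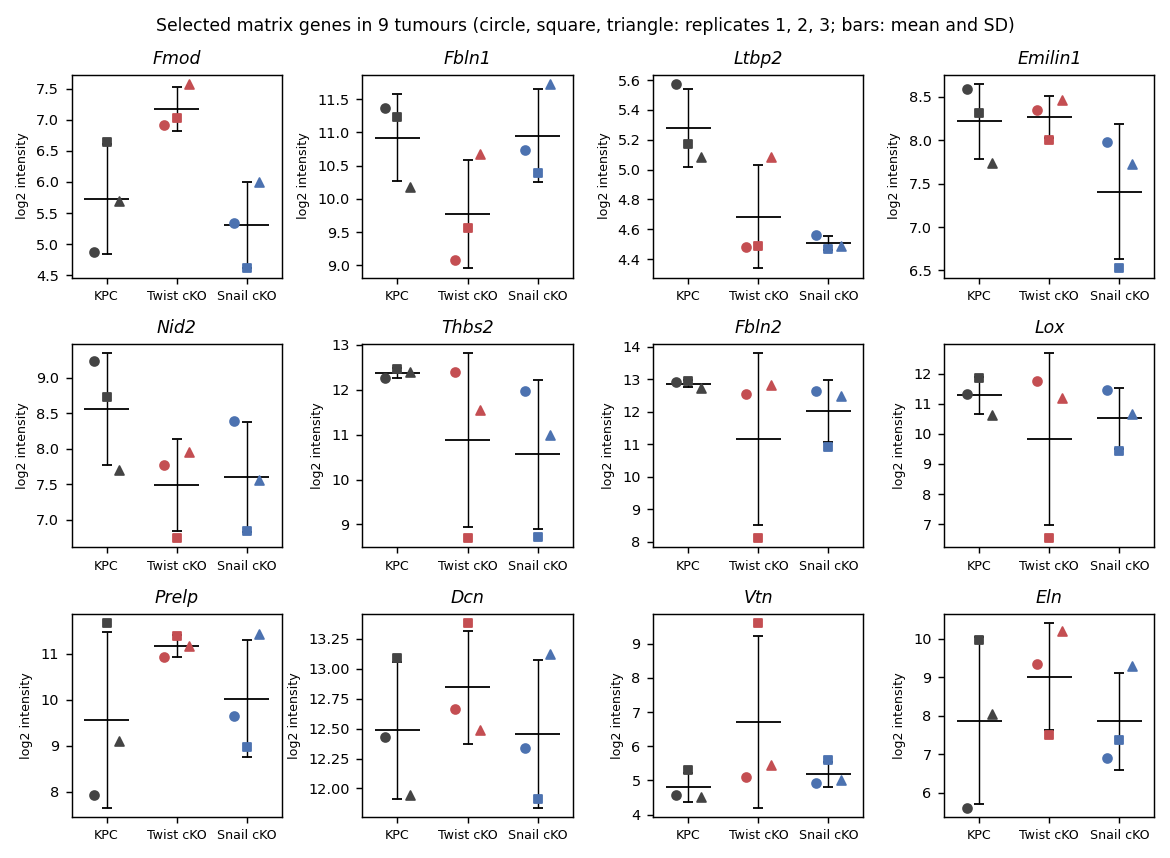
Log2 intensity of single matrix genes in the 9 tumours (points), replicates 1, 2 and 3 as circle, square and triangle, and with group means and SDs (bars), for 12 genes named in the text. In the Fmod panel the Twist cKO tumours, at 6.92 to 7.58, lie above every KPC and Snail cKO tumour.

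Directions among the interstitial proteoglycans were mixed. In Twist cKO, 3 of 7 had a lower mean than KPC (median 0.36, but -0.087 with arrays weighted by quality), in Snail cKO 6 of 7 did (median -0.35), and 6 of 7 were lower in Snail cKO than in Twist cKO (median -1.04). Without Snail cKO tumour 2, Snail cKO was lower than KPC for 3 of 7 (median 0.25) and lower than Twist cKO for 5 of 7 (median -0.40). When the array set was blocked, it was lower than KPC for 2 of 7 (median 0.13). None of the 7 passed in limma after adjustment.

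Fmod, fibromodulin, a small leucine-rich proteoglycan that binds collagen and limits fibril growth, was at 4.87, 6.64 and 5.69 in the KPC tumours, 6.92, 7.03 and 7.58 in the Twist cKO tumours and 5.34, 4.61 and 5.99 in the Snail cKO tumours. All 3 Twist cKO tumours were above the other 6. The difference from KPC was 1.44 (SE 0.51), with limma p-values of 0.0202 before and 0.979 after adjustment and an exact permutation p of 0.1. Snail cKO was lower than Twist cKO by a difference of -1.86 (SE 0.51), with limma p-values of 0.0056 before and 0.985 after adjustment and an exact permutation p of 0.1. The probe was above background on 2 KPC, 3 Twist cKO and 2 Snail cKO arrays. Within the array set of the KPC tumours, the difference of Twist cKO from KPC was 1.85. Across the settings tried it ranged from 0.70 to 1.99.

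Prelp, a leucine-rich protein that anchors basement membrane to collagen, was at 7.93, 11.67 and 9.10 in the KPC tumours, 10.92, 11.39 and 11.18 in the Twist cKO tumours and 9.64, 8.97 and 11.44 in the Snail cKO tumours. The Twist cKO tumours lay close together, while the KPC tumours held both the lowest and the highest of the 9. The difference of Twist cKO from KPC was 1.60 (SE 0.93), with an adjusted p of 0.979 in limma and an exact permutation p of 0.4, and 0.78 without KPC tumour 1. Snail cKO minus Twist cKO was -1.15 (SE 0.93), with an adjusted p of 0.985 in limma and an exact permutation p of 0.4. Lum, lumican, a regulator of collagen fibril spacing, was at 9.12, 11.50 and 10.54 in the KPC tumours, 11.14, 10.69 and 11.40 in the Twist cKO tumours and 10.45, 8.75 and 10.90 in the Snail cKO tumours. KPC tumour 1 and Snail cKO tumour 2 were lowest. The difference of Snail cKO from Twist cKO was -1.04 (SE 0.70), with an adjusted p of 0.985 in limma and an exact permutation p of 0.2, and -0.40 without Snail cKO tumour 2.

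Dcn, decorin, which binds collagen and TGF-beta, was at 12.43, 13.09 and 11.95 in the KPC tumours, 12.66, 13.38 and 12.49 in the Twist cKO tumours and 12.34, 11.91 and 13.13 in the Snail cKO tumours. It spanned less than any other interstitial proteoglycan tested, and Twist cKO tumour 2 was its highest tumour. Bgn, biglycan, its closest relative, was at 14.38, 14.19 and 13.24 in the KPC tumours, 13.48, 11.76 and 14.01 in the Twist cKO tumours and 13.37, 11.36 and 13.78 in the Snail cKO tumours. It was lowest in tumour 2 of each cKO group, while decorin was highest in that of Twist cKO and lowest in that of Snail cKO. In Snail cKO the difference of Bgn from KPC was -1.10 (SE 0.76), with an adjusted p of 1.00 in limma and an exact permutation p of 0.3. Without Snail cKO tumour 2 that difference was -0.36. Vcan, versican, a large proteoglycan that binds hyaluronan, was at 7.62, 6.06 and 5.42 in the KPC tumours, 5.37, 4.47 and 7.00 in the Twist cKO tumours and 8.16, 4.85 and 6.09 in the Snail cKO tumours. Ogn, osteoglycin, was at 9.89, 7.96 and 6.07 in the KPC tumours, 5.82, 8.90 and 8.04 in the Twist cKO tumours and 5.98, 6.13 and 7.50 in the Snail cKO tumours. Vcan was lowest and Ogn second highest in Twist cKO tumour 2, and the groups of both overlapped. Aspn, asporin, had 1 probe, above background on 0 of 9 arrays.

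Basement membrane linkers join laminin and type IV collagen into a sheet. All 3 had a lower mean in Twist cKO than in KPC (median -0.60), 1 of 3 did in Snail cKO (median 0.036, but -0.037 over the mean of each gene's probes), and 0 of 3 were lower in Snail cKO than in Twist cKO (median 0.63). Without Twist cKO tumour 2, 2 of 3 were lower than KPC in Twist cKO (median -0.092), and 1 of 3 was lower in Snail cKO than in Twist cKO (median 0.13). Within the array set of the KPC tumours, 3 of 3 were lower in Snail cKO than in Twist cKO. Hspg2, perlecan, a heparan sulphate proteoglycan that stores growth factors, was at 11.99, 11.50 and 11.04 in the KPC tumours, 11.52, 10.36 and 11.72 in the Twist cKO tumours and 12.35, 11.44 and 11.70 in the Snail cKO tumours. Twist cKO tumour 2 was lowest and Snail cKO tumour 1 highest. The difference from KPC was -0.31 (SE 0.44) in Twist cKO, with an adjusted p of 0.979 in limma, and 0.32 (SE 0.44) in Snail cKO, with an adjusted p of 1.00. Snail cKO minus Twist cKO was 0.63 (SE 0.44), with an adjusted p of 0.985 in limma and an exact permutation p of 0.5.

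Nid1, nidogen-1, was at 10.68, 10.02 and 9.10 in the KPC tumours, 9.54, 8.31 and 10.14 in the Twist cKO tumours and 10.95, 8.92 and 10.03 in the Snail cKO tumours. Tumour 2 of each cKO group was lowest. Its differences were -0.60 for Twist cKO against KPC, 0.036 for Snail cKO against KPC and 0.64 between the cKO groups, all with an SE of 0.66 and limma adjusted p of 0.979, 1.00 and 0.985. Without Twist cKO tumour 2 the first was -0.092 and the last 0.13, and the second was 0.56 without Snail cKO tumour 2. A second probe of Nid1 had differences of 0.032, -0.11 and -0.14. Nid2, nidogen-2, was at 9.24, 8.73 and 7.70 in the KPC tumours, 7.77, 6.74 and 7.95 in the Twist cKO tumours and 8.39, 6.84 and 7.56 in the Snail cKO tumours. The same tumours were lowest, and KPC tumours 1 and 2 were highest. Nid2 differed from KPC by -1.07 (SE 0.55) in Twist cKO, with an adjusted p of 0.979 in limma and an exact permutation p of 0.3. In Snail cKO the difference was -0.96 (SE 0.55), with an adjusted p of 1.00 in limma and an exact permutation p of 0.2, and between the cKO groups it was 0.11 (SE 0.55), with an adjusted p of 0.991 in limma.

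Lysyl oxidases oxidise lysines of collagen and elastin, which then crosslink and stiffen the matrix. All 3 tested had a lower mean than KPC in Twist cKO (median -0.65), and 1 of 3 did without Twist cKO tumour 2. Lox and Loxl1 had a lower mean than KPC in Snail cKO, where Loxl3 was above background on no array. Lox was at 11.32, 11.87 and 10.64 in the KPC tumours, 11.74, 6.54 and 11.18 in the Twist cKO tumours and 11.45, 9.43 and 10.67 in the Snail cKO tumours. It was far lower in Twist cKO tumour 2 than in the other Twist cKO tumours, which were among the KPC values. The difference of Twist cKO from KPC was -1.46 (SE 1.24), with an adjusted p of 0.979 in limma, and 0.18 without that tumour. Snail cKO differed from KPC by -0.76 and from Twist cKO by 0.69 (both SE 1.24), with adjusted p of 1.00 and 0.985 in limma. The difference of Snail cKO from KPC was -0.22 without Snail cKO tumour 2 and -0.0089 when the array set was blocked, and that from Twist cKO was -0.94 without Twist cKO tumour 2.

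Loxl1, the family member needed for elastin crosslinking, was at 12.27, 12.26 and 10.76 in the KPC tumours, 11.73, 9.87 and 11.74 in the Twist cKO tumours and 12.28, 9.94 and 12.24 in the Snail cKO tumours. Tumour 2 of each cKO group was lowest, followed by KPC tumour 3. Its differences were -0.65 for Twist cKO against KPC, -0.28 for Snail cKO against KPC and 0.37 between the cKO groups, all with an SE of 0.79 and limma adjusted p of 0.979, 1.00 and 0.986. The first was -0.029 and the last -0.25 without Twist cKO tumour 2, and the second was 0.50 without Snail cKO tumour 2. Loxl3 was at 4.82, 5.51 and 4.84 in the KPC tumours, 5.06, 4.47 and 5.18 in the Twist cKO tumours and 4.83, 4.39 and 4.38 in the Snail cKO tumours. Its probe was dim, above background on 1 KPC, 2 Twist cKO and 0 Snail cKO arrays, so no fold is given for Snail cKO. Twist cKO minus KPC was -0.15 (SE 0.31), with an adjusted p of 0.986 in limma. Limma gave Loxl3 in Snail cKO an adjusted p of 1.00 against KPC and 0.985 against Twist cKO, and the exact permutation p was 0.2 in both. Loxl2 was not analysed here.

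Other genes of the same pathway were counted by 4 lists they belong to, and none passed in any comparison after limma's adjustment. Of all genes tested, 56.2% had a lower mean than KPC in Twist cKO and 53.9% in Snail cKO. Within each cKO group, the median deviation of each list from the 9-tumour mean was lowest in tumour 2. Of 28 other matrix glycoproteins and proteoglycans tested, 15 had a lower mean than KPC in Twist cKO (median -0.075) and 19 in Snail cKO (median -0.41). Hapln3, a link protein that ties proteoglycans to hyaluronan, was higher than KPC in every Snail cKO tumour, by 0.95 (SE 0.29) with an adjusted p of 1.00 in limma. Every Twist cKO tumour was also above KPC, by 0.51 (SE 0.29), and the cKO groups overlapped. The Hapln3 probe was dim, above background on 2 KPC, 3 Twist cKO and 3 Snail cKO arrays. Ecm1, an extracellular glycoprotein, had a difference of -1.75 (SE 0.95) in Twist cKO, where tumour 2 was at 9.09, with an adjusted p of 0.979 in limma. Srpx was below every Twist cKO tumour in every Snail cKO tumour, by a difference of -1.11 (SE 0.44), with an adjusted p of 0.985 in limma.

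Of 19 enzymes that crosslink or process matrix, 16 had a lower mean than KPC in Twist cKO (median -0.52) and 13 in Snail cKO (median -0.33). The median deviation of these enzymes was 0.00078, -0.92 and 0.39 in the Twist cKO tumours and 0.50, -0.70 and -0.12 in the Snail cKO tumours. P3h2, a collagen prolyl hydroxylase, was above background on 3 Twist cKO, 0 KPC and 1 Snail cKO arrays. The Twist cKO arrays alone met the detection filter, so its place above KPC is not independent of that filter. It was at least 1.6-fold higher in Twist cKO (measured means of 5.66 and 4.75), with an adjusted p of 0.979 in limma. The Twist cKO tumours were at 5.15, 6.39 and 5.43, each above every KPC tumour. Has1, a hyaluronan synthase, had a difference of -0.85 (SE 0.38) in Twist cKO, every tumour lying below KPC, with an adjusted p of 0.979 in limma. In Snail cKO its difference from KPC was -0.87 (SE 0.38), with overlapping groups. The Has1 probe was above background on 3 KPC, 2 Twist cKO and 1 Snail cKO arrays. Tgm2, a transglutaminase that crosslinks fibronectin, had a difference of -0.78 between Snail cKO and Twist cKO, with an adjusted p of 0.985 in limma. Of 15 matrix receptors tested, 12 had a lower mean than KPC in Twist cKO (median -0.12) and 8 in Snail cKO (median -0.020). Their median deviation was 0.21, -1.25 and 0.32 in the Twist cKO tumours and 0.34, -0.074 and 0.20 in the Snail cKO tumours. Itga5, the integrin subunit of the fibronectin receptor, had a difference of -1.13 (SE 0.77) in Twist cKO, with an adjusted p of 0.979 in limma. The last list held TGF-beta ligands, receptors and early targets, and also Ltbp1, which is counted among the matrix genes above. Of its 8 genes tested, 5 had a lower mean than KPC in each cKO group (medians -0.32 and -0.28). Pmepa1, an early TGF-beta target, had differences from KPC of -1.65 in Twist cKO and -1.10 in Snail cKO, with adjusted p of 0.979 and 1.00 in limma.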

How the data were processed

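Total RNA of 9 tumours was hybridised to 1-colour Illumina mouse arrays. For each of 45281 probes the deposited table holds a mean bead intensity and, per the file headers, a detection p-value. The submitters' processing notes name GenomeStudio 5.0 without its role. The deposited processed intensities, an alternative here, were a straight-line function of the bead intensity of each array, with slopes of 0.795 to 1.16 and column medians of 14.6, 13.7 and 17.3 (KPC), 21.7, 22.4 and 11.2 (Twist cKO) and 21.7, 23.3 and 9.3 (Snail cKO). The sources used here do not give how they were subtracted and scaled.

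Probes were named from the platform annotation, where 34885 had 1 symbol, 18 several and 10378 none, and 34807 matched RefSeq by Entrez number. Intensities went through neqc (offset 16) of limma 3.58.1 in R 4.3.3, with version 1.17.8 of data.table. The background was inferred from the detection p-values. Of the detected probes of a gene, the brightest on average stood for it, and 4359 genes had more than 1. The 3 groups were fitted together with lmFit and eBayes (6 residual degrees of freedom, 2.57 from the prior). The two-sided p-values were adjusted by Benjamini-Hochberg over 11537 genes, and the procedure was tested on simulated data. Errors of differences are standard errors of that fit. Mouse numbers pair no tumours, and the p-values rest on the spread between tumours of separate mouse numbers. The number of arrays limits the precision.

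The members, roles, marker and pathway lists and tests were chosen with earlier results of these data known. Full statistics were given to the 8 members of smallest p in each comparison and to the basement membrane and lysyl oxidase members, and up to 3 genes of each pathway list could be named per comparison. Alternatives covered background, offset, normalization, detection filter, probe choice, array weights, variance trend, array set and each tumour left out.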

Additional observations from a re-analysis of the deposited data

How the results depend on the processing

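No member passed the adjusted threshold of 0.05 in limma under any of the 25 alternatives, and the smallest adjusted p of a member was 0.602 for Twist cKO against KPC, 0.718 for Snail cKO against KPC and 0.627 between the cKO groups. Between 0 and 4 members had an unadjusted p under 0.05. Over all genes, the number past the threshold was 0 to 3 for Twist cKO against KPC with 1 tumour left out (3 without Twist cKO tumour 1, 1 without KPC tumour 3) and 1 with the second brightest probe. For Snail cKO against KPC it was 0 to 1 (1 without KPC tumour 3), and between the cKO groups 0 to 1 (1 without Twist cKO tumour 1) and 1 with the authors' processed values. The F test gave 0 to 1 (1 without KPC tumour 3), 1 with the authors' processed values and 2 with the second brightest probe. The second brightest probe, the brightest of all probes taken before the detection filter, and leaving out tumour 2 of both cKO groups together, were chosen after seeing the data.

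The number of members with a lower mean changed with single tumours and with the array set. For Twist cKO against KPC it was 22, and 14 (without Twist cKO tumour 2) to 25 with 1 tumour left out, 13 with the array set as a block, 10 within array set 1, 11 without KPC tumour 1 and Twist cKO tumour 2, and 14 without tumour 2 of both cKO groups. For Snail cKO against KPC it was 23, and 13 (without Snail cKO tumour 2) to 24, 11 with the block and 13 without both. Between the cKO groups it was 18, and 11 (without Twist cKO tumour 3) to 24. The median difference of the members also changed sign, from -0.50 to values of up to 0.25 for Twist cKO against KPC and from -0.35 to up to 0.23 for Snail cKO against KPC, and it ranged from -0.52 to 0.49 between the cKO groups. The block is estimated only from tumours 1 and 2 against tumour 3 of each cKO group, so it also takes up what sets those tumours apart, and the cause of these shifts was not tested.

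Values of single members below or above 0 turned under some settings. In Twist cKO against KPC, array set 1 gave 0.21 for Hspg2, 0.21 for Nid1 and 0.12 for Loxl3, and the block gave 0.042 for Loxl1. Without KPC tumour 1 and Twist cKO tumour 2, Hspg2 was at 0.35, Lox at 0.20, Loxl1 at 0.22 and Nid1 at 0.28. Without tumour 2 of both cKO groups, Hspg2 was at 0.11, Lox at 0.18 and Loxl3 at 0.062. Loxl3 was at 0.039 with the authors' values, and Nid1 at 0.032 with its second probe. With 1 tumour left out, Hspg2 ranged from -0.57 to 0.11, Lox from -2.42 to 0.18 and Loxl3 from -0.29 to 0.076. In Snail cKO against KPC, Loxl1 was at 0.41 with the block, 0.48 within array set 1, 0.50 without tumour 2 of both cKO groups and -0.78 to 0.50 with 1 tumour left out. Ltbp4 was at 0.013 with the block. Nid1 was at -0.037 with the mean of its probes, -0.11 with the second and -0.46 to 0.56 with 1 tumour left out. Between the cKO groups, array set 1 gave -0.019 for Hspg2, -0.51 for Lox, -0.11 for Nid1, -0.39 for Nid2 and 0.26 for Prelp. Array weights gave -0.11 for Lox and -0.020 for Nid2. Without KPC tumour 1 and Twist cKO tumour 2, Lox was at -0.94, Loxl1 at -0.25 and Nid2 at -0.26, and without tumour 2 of both cKO groups Lox was at -0.40. Nid1 was at -0.14 with its second probe. With 1 tumour left out, Lox ranged from -0.94 to 1.66, Loxl1 from -0.25 to 1.15 and Nid2 from -0.29 to 0.49. Dim probes, among them those of Ltbp2, Loxl3, Thbs1, Fmod, Vtn, Vcan and Matn2, lay near background on some arrays, so their differences are compressed.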
